A study of Triticum aestivum with 12 samples.

Results

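The comparison described here is that of salt-treated with control roots of the wheat cultivar Najran, labelled as Triticum aestivum. Of 83486 genes in the table of normalized counts, 44737 reached a value of 10 in 3 or more root libraries and are the genes described. The 3 control libraries came from plants watered with tap water (0 mM NaCl) and the 3 salt-treated libraries from plants given 200 mM NaCl from germination to full vegetative growth. Each library was a biological replicate of pooled plants, and 6 shoot libraries of the same treatments were used here only to compare the response of the roots with that of the shoots. All plants shared the cultivar, the soil mix and the light and temperature regime, and only 1 salt concentration and 1 harvest were sampled.

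Salt in the soil draws water from the root and brings sodium and chloride into its cells. Roots are known to answer by making compatible solutes such as proline, by holding sodium back from the xylem and keeping potassium in, by changing the lignin and suberin barriers around the stele, and by slowing growth through auxin, cytokinin and abscisic acid. A bulk library cannot tell fewer cells of a type from less RNA per cell, so every difference below is one of the whole root.

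Totals of the deposited normalized counts ran from 14878135 to 15863307 among the control libraries and from 13890189 to 14183797 among those given salt. Chlorophyll a-b binding, photosystem and Rubisco genes, the shoot marker list of 133 genes, summed to 1599.9, 2278 and 3492 in control roots and to 1513, 1526 and 1666 in salt-treated roots, which was 0.0108 to 0.022% of a root library against 4.98 to 7.17% of a shoot library. Of the 33 genes on that list that passed the filter in roots, 0 were called by limma at an adjusted p under 0.01, 4 were lower in salt at an adjusted p under 0.05 and 12 had an unadjusted p under 0.05. The tables name no marker gene of single root tissues, so the label of the organ was checked only in this way. Bread wheat is known to carry A, B and D genomes. The root libraries held 47.8 to 48.2% of their counts in A-genome genes and 46.0 to 46.8% in B-genome genes, but 2.46 to 2.73% in the 20700 D-genome genes of the table. A mean of at least 10 over the 6 root libraries was reached by 66.5% of A-genome, 66.3% of B-genome and 20.2% of D-genome genes, and in shoots the D genome held 5.34 to 8.89% of counts. The genome makeup of the plants was not tested, and values for D-genome copies are low in most cases. Reads of near-identical copies on A, B and D chromosomes can also be divided among them by the estimation. Differences between such copies are therefore uncertain, and a like change in several copies may not be independent. Differences between overlapping or antisense genes are uncertain too, since the kit did not keep the strand.

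Fewer genes rose than fell in salt-treated roots, except that the split was nearly even, with 70 up and 74 down, without control replicate 1. Differentially expressed genes (DEGs) were defined by an adjusted p under 0.01, from limma on log2(normalized count + 1) with Benjamini-Hochberg adjustment over all 44737 genes, together with a log2 fold change of 1 or more in size. There were 523 up-regulated genes (1.17% of those tested) and 1030 down-regulated genes (2.3%), or 3.47% in all. With the adjusted p threshold at 0.05, 4.18% of genes were higher in salt and 7.79% lower (12.0% in all), and the groups did not overlap in 37.5%. All fold changes are on that log2 scale, which understates the change of low genes. The scale of the libraries bears on the split, since the median log2 fold change over all genes was −0.02 and became 0.12 when every library was set to the same total, where 637 genes rose and 854 fell. Among the genes with the lowest mean counts (5.78 to 27.0) 1.54% were DEGs, and among those with the highest (398 and above) 4.82% were. The share was 3.67% on the A genome, 3.68% on the B genome and 1.67% on the D genome.

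The libraries did not carry the response to the same extent. For DEGs called without a given library, the position of that library was measured on a scale where 0 is the mean of the remaining control libraries and 1 that of the remaining salt libraries. Salt replicate 1 lay at a median of 1.11 over the 564 DEGs of the other 5 libraries, salt replicate 2 at 0.813 over 1128, and salt replicate 3 at 0.644 over 2526. Salt replicate 3 was on the salt side of the midpoint for 64.4% of those genes, against 98.6% for replicate 1 and 74.8% for replicate 2. At an adjusted p under 0.05, where 1243 to 3106 genes were called without one control library, the control libraries lay at 0.201, −0.00699 and 0.00967. Among the salt libraries, replicate 3 thus lay nearest the controls, and without that library 847 genes rose and 1679 fell. Without control replicate 2 no gene passed an adjusted p of 0.01 in limma, with 9967 genes at an unadjusted p under 0.05, so no call at 0.01 was made without that library. Gene groups follow these totals. Of the 31 groups described below, 26 held a call without salt replicate 3, 23 and 18 without salt replicates 2 and 1, 9 and 1 without control replicates 1 and 3, and 0 without control replicate 2. Of the 1553 DEGs, 1298 could be tested in all 6 fits that leave out 1 library. Of these, 1061 stayed under an adjusted p of 0.05 in all 6. In all 1553 the groups did not overlap, so leaving out 1 library could not reverse a direction. The direction is therefore no check on the calls.

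**Figure D1:**
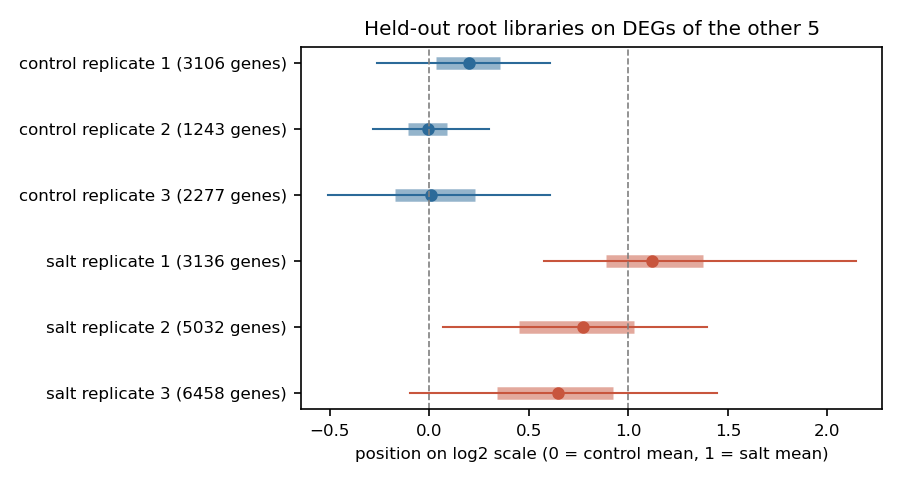
Position of each root library between the control mean (0) and the salt mean (1) of the other 5 libraries, over genes called by limma at an adjusted p under 0.05 without it. Points are medians, thick bars run from the 25th to the 75th percentile and thin bars from the 5th to the 95th. Salt replicate 3, at 0.644, lies closest to the controls among the salt libraries, and the 3 control medians lie between −0.00699 and 0.201.

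Descriptions in the authors' comparison tables cover 5159 genes, of which 4058 were tested. A gene is in those tables only if it was called in at least 1 of the authors' 4 comparisons, root salt response included, so described genes are called more often than others and 3.06% of them rose and 6.23% fell as DEGs (9.29% in all, and 8.58% and 18.2%, together 26.8%, at an adjusted p under 0.05), with a median log2 fold change of −0.18. Counts of gene groups are to be read against these shares, and for many of them the counts of DEGs (adjusted p under 0.01) without salt replicate 3 and the highest counts without any other single library stand in parentheses. The 31 groups were formed by words in the descriptions, and 23 families of one identical description, with at least 6 members tested and at least 3 of them DEGs, were picked after their values were seen. The other 1176 DEGs have no description. Apart from the neighbouring genes of the runs below, 167 genes are named, of which 92 follow a rule on adjusted p, level and fold change within these groups and 75, marked with †, were chosen after their values were seen.

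**Figure D2:**
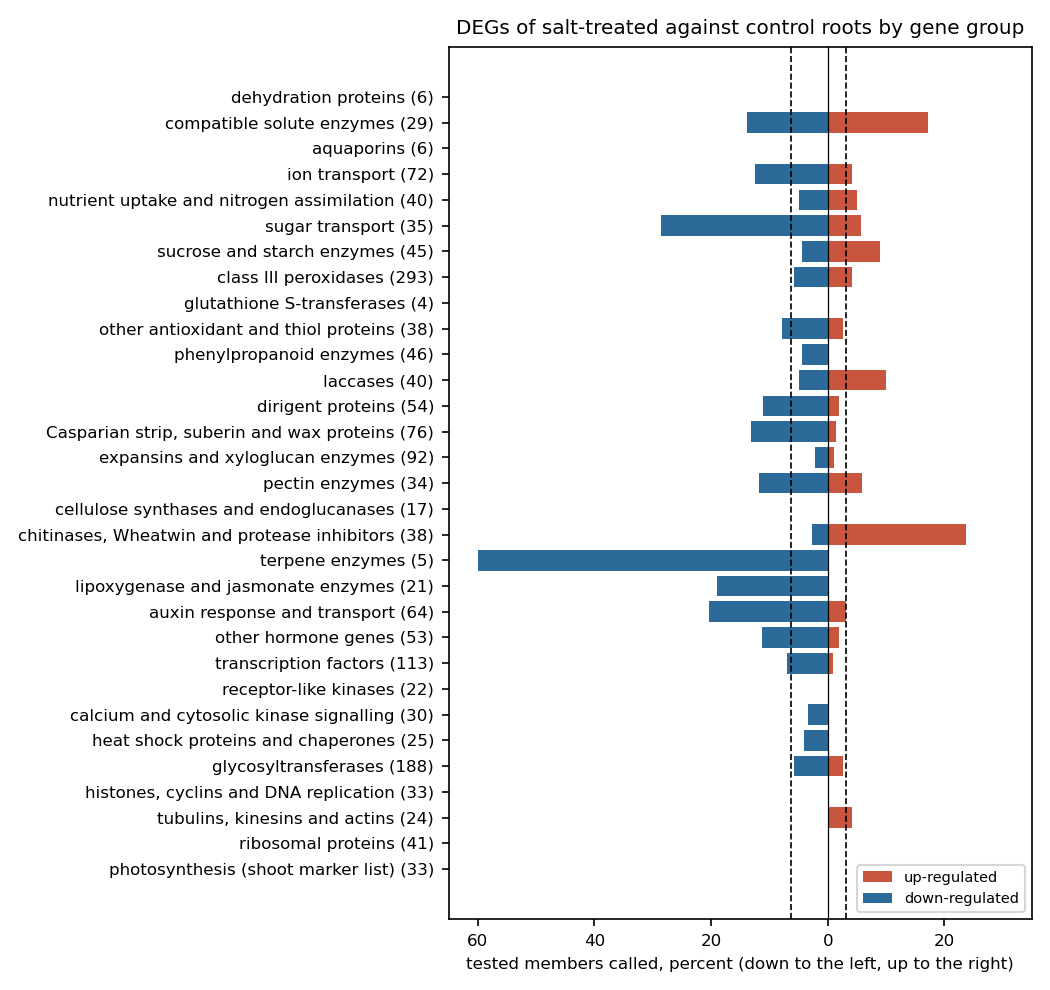
Share of tested members called in each of the 31 groups, in percent, with up-regulated genes to the right and down-regulated genes to the left (DEGs by limma). Dashed lines mark the shares over all 4058 described genes tested, 3.06% up and 6.23% down, and the number tested stands beside each group. The chitinase and compatible solute groups reach furthest to the right, and the terpene, sugar transport and auxin groups furthest to the left.

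For proline, 2 of 4 genes of the synthesis enzyme rose and 0 fell, and all 3 genes of the first enzyme of breakdown fell. Delta-1-pyrroline-5-carboxylate synthase (P5CS), the enzyme that commits glutamate to proline, gave 735, 508 and 400.3 in control roots and 2936, 2010.0 and 2377 in salt-treated roots for TraesCS3A02G363700, so the groups were far apart. The gene rose 4.54-fold (log2 fold change 2.18, SE 0.26, adjusted p = 0.00386), and the copy TraesCS3D02G357200† rose from 22.2 ± 2.56 to 63.9 ± 4.35 (SD, n = 3; log2 fold change 1.48, SE 0.24, adjusted p = 0.00989). A 3B copy, TraesCS3B02G395900, had a log2 fold change of 1.59 (SE 0.31) and missed the threshold (limma adjusted p = 0.0179). Proline dehydrogenase, which starts the oxidation of proline in mitochondria, gave 4425, 4480.0 and 4351 in control roots and 329, 552 and 395 in salt-treated roots for TraesCS1B02G223300†. That is a 10.6-fold fall (log2 fold change −3.41, SE 0.21, adjusted p = 0.000923) with control libraries that barely differ. The copies TraesCS1A02G209100† and TraesCS1D02G212400† fell as well, with log2 fold changes of −2.86 (SE 0.32) and −2.73 (SE 0.42). Glutamate dehydrogenase, which links glutamate to 2-oxoglutarate, fell in TraesCS5A02G434100† and TraesCS5B02G437100†, the log2 fold changes being −1.70 (SE 0.20) and −1.56 (SE 0.19).

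Genes of polyamine metabolism moved in both directions and included some of the most abundant DEGs. S-adenosylmethionine decarboxylase supplies the aminopropyl groups of spermidine and spermine. Its gene TraesCS2A02G355400 gave 7724, 8203 and 7504 in control roots and 24543, 21445 and 22616 in salt-treated roots, the highest mean level of any described DEG that rose. It rose 2.93-fold (log2 fold change 1.55, SE 0.17, adjusted p = 0.00327), TraesCS2B02G372900 rose 2.21-fold and TraesCS2D02G352900† 3.09-fold, whereas another gene of that description, TraesCS5A02G221200†, fell 3.9-fold. A polyamine oxidase, TraesCS2A02G548200†, rose 4.08-fold (log2 fold change 2.03, SE 0.20, adjusted p = 0.00225). An amine oxidase, TraesCS2B02G354400, had 6381, 7163 and 7345 in control roots and 1492, 1579.8 and 1910.2 in salt-treated roots and fell 4.21-fold (log2 fold change −2.07, SE 0.17, adjusted p = 0.00147).

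The compatible solute group, which holds P5CS with the enzymes of trehalose and of the raffinose family sugars, had 5 members up and 4 down of 29 tested, with a median log2 fold change of 0.60 (7 up and 3 down without salt replicate 3, at most 1 and 4 without any other library). Within it the trehalose 6-phosphate phosphatases, which make trehalose from its phosphate, divided. TraesCS2A02G161000† gave 26.0, 26.4 and 27.9 in control roots and 560.2, 379 and 145 in salt-treated roots, which is high in salt and lowest there in replicate 3. That gene and its neighbour TraesCS2A02G161100† rose with log2 fold changes of 3.50 (SE 0.46) and 3.03 (SE 0.38), and TraesCS2B02G187100 with 2.36 (SE 0.29). On group 1 chromosomes the enzyme fell, with log2 fold changes of −1.72 (SE 0.26) in TraesCS1A02G210400† and −2.43 (SE 0.35) in TraesCS1B02G224300†. A raffinose synthase family gene, TraesCS7A02G134100, and a galactinol-sucrose galactosyltransferase gene, TraesCS7A02G236500, both of the branch that lengthens sucrose with galactose, fell 2.59-fold and 2.91-fold. Myo-inositol oxygenase, which opens the inositol ring, fell 7.04-fold in TraesCS7B02G269900† (log2 fold change −2.82, SE 0.16, adjusted p = 0.000739).

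Dehydration proteins did not pass the test in roots. None of the 6 dehydrin, LEA and ABA-inducible genes tested was a DEG in limma, with 1 at an adjusted p under 0.05 (1 rose as a DEG without salt replicate 3), 2 at an unadjusted p under 0.05 and a median log2 fold change of 0.22. The ABA-inducible gene TraesCS1B02G381500 gave 502, 464 and 253 in control roots and 215, 166 and 154 in salt-treated roots, lower in every salt library than in any control (limma adjusted p = 0.0422), where its estimate in shoots was 4.25.

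**Figure D3:**
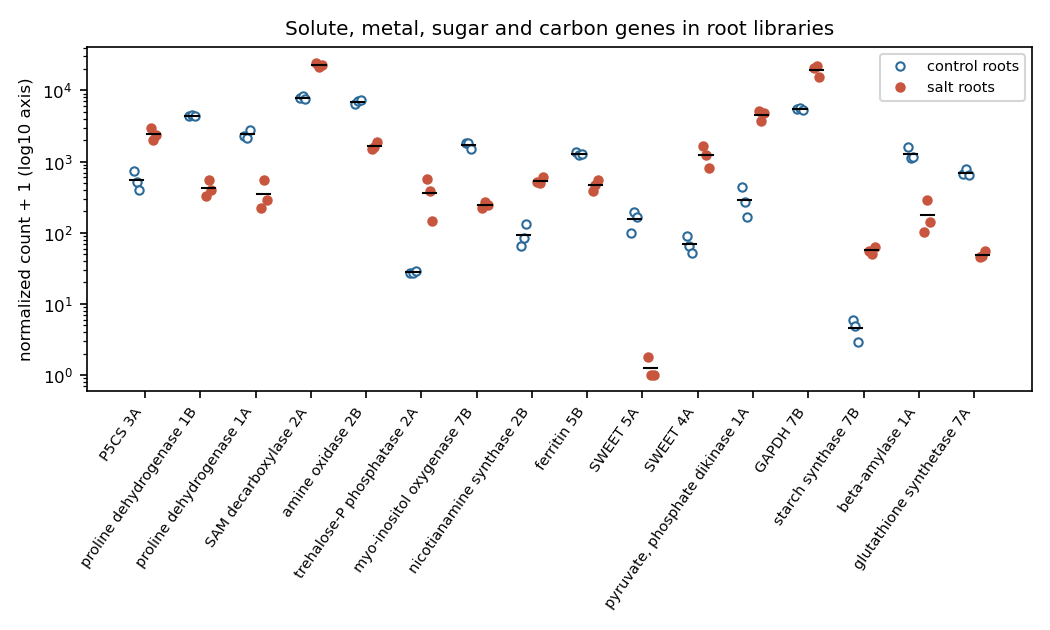
Normalized counts of genes of proline, polyamine, metal, sugar and carbon metabolism in the 6 root libraries, on a log10 axis of normalized count + 1. Open circles are the 3 control libraries and filled circles the 3 salt-treated libraries, and bars mark the group means. In each gene shown the 3 filled circles lie on one side of the open ones, the 1B proline dehydrogenase below them and the 1A pyruvate, phosphate dikinase above them.

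Among ion transport genes, 3 of 72 tested rose and 9 fell, with a median of −0.28 (0 up and 8 down without salt replicate 3, at most 0 and 3 without any other library). Among the risers was HKT8, TraesCS4B02G370800 (chr4B:656815048-656817444). Neither this gene nor the riser TraesCS3B02G481800 below could be tested without a salt library, so both count as not called there. In rice the transporter of this name draws sodium out of the xylem and so keeps it from the shoot. Its normalized counts were 0.84, 0 and 1.87 in control roots and 66.6, 69.6 and 24.5 in salt-treated roots, from near zero in every control to a modest level in every salt library (log2 fold change 4.83, SE 0.61, adjusted p = 0.00463). A potassium transporter gene, TraesCS3B02G481800, gave 9.23, 4.66 and 3.74 in control roots and 70.3, 88.2 and 178 in salt-treated roots and rose as well (log2 fold change 4.01, SE 0.46, adjusted p = 0.00353). Of 26 genes described as potassium transporter 1 rose and 2 fell, or 11.5% against 9.29% of described genes, with 2 higher and 5 lower at an adjusted p under 0.05. Several other routes for potassium fell. The AKT1-like channel TraesCS3A02G233800†, of a kind that takes potassium into root hairs and epidermis, gave 457, 545 and 359 in control roots and 68.7, 94.6 and 155 in salt-treated roots and fell 4.43-fold (log2 fold change −2.15, SE 0.32, adjusted p = 0.00763). The AKT2/3 channel TraesCS1A02G267900† and the potassium transporter genes TraesCS4B02G310300† and TraesCS7B02G371100† fell with log2 fold changes of −1.32 (SE 0.20), −1.94 (SE 0.27) and −1.63 (SE 0.24). The 2-pore potassium channel gene TraesCS5B02G396400, of a family known from the vacuole, fell 2.86-fold. A cation/H+ antiporter gene, TraesCS5B02G031800, and a chloride channel gene, TraesCS3A02G125300†, fell 3.4-fold and 3.77-fold.

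Some abundant water channel genes fell, but those described as aquaporins did not do so as a group. None of the 6 genes described with the word aquaporin was called, and 0 reached an adjusted p under 0.05 in limma, with 3 at an unadjusted p under 0.05. Their median log2 fold change was 0.36, against −0.18 over described genes, with 2 higher and 1 lower in salt without overlap. Their summed counts were 23736 to 32801 in control roots and 26534 to 42553 in salt-treated roots. Other words in the descriptions also denote water channels. The gamma-type tonoplast intrinsic protein gene TraesCS4A02G410800 gave 14894, 17772 and 18269.5 in control roots and 6753, 5321 and 5468 in salt-treated roots, the highest mean level of any described DEG that fell, and dropped 2.91-fold (log2 fold change −1.54, SE 0.19, adjusted p = 0.00444). The plasma membrane intrinsic protein gene TraesCS2B02G425600† had 3238, 4089 and 3672 in control roots and 1207, 1009 and 958 in salt-treated roots and fell 3.46-fold (log2 fold change −1.79, SE 0.17, adjusted p = 0.00214). A boron transporter gene, TraesCS7B02G475400†, rose 3.33-fold (log2 fold change 1.74, SE 0.21, adjusted p = 0.00397).

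Nicotianamine synthase makes the chelator from which grasses build the phytosiderophores that fetch iron from soil. Of 8 such genes tested, 4 rose and 0 fell, with a median log2 fold change of 2.10 (2 up and 0 down without salt replicate 3, at most 1 and 0 without any other library). The groups did not overlap in 7 of the 8, against 52.2% of described genes. TraesCS2B02G060800† gave 63.1, 84.1 and 131 in control roots and 508, 505 and 608 in salt-treated roots, and the salt libraries lay close together (log2 fold change 2.59, SE 0.28, adjusted p = 0.0028). The other 3 were TraesCS2A02G095700†, TraesCS4B02G183900† and TraesCS6A02G163100†, with log2 fold changes of 1.49 (SE 0.19), 2.43 (SE 0.39) and 2.22 (SE 0.35). Ferritin, which stores iron, fell 2.8-fold in TraesCS5B02G151000† and 2.72-fold in TraesCS5A02G152400†. In the group of nutrient uptake and nitrogen assimilation 2 genes rose and 2 fell of 40 tested (2 up and 4 down without salt replicate 3, at most 0 and 3 without any other library). The rises were those of an ammonium transporter (TraesCS3B02G383400, 2.57 (SE 0.37)) and a sulfate transporter (TraesCS3B02G323500, 3.63 (SE 0.58)), and the falls those of high affinity nitrate transporter 2.5 (TraesCS3B02G285900, −2.95 (SE 0.44)) and a phosphate transporter (TraesCS4A02G416600, −2.88 (SE 0.46)).

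Sugar transport held more falls than most groups, with 10 of 35 members down and 2 up (2 up and 8 down without salt replicate 3, at most 2 and 7 without any other library), and all 12 of these DEGs were SWEET genes. SWEET proteins let sugars cross membranes along their gradient. TraesCS5A02G039000 gave 96.6, 196 and 166 in control roots and 0.765, 0 and 0 in salt-treated roots, so its transcript was all but gone under salt (log2 fold change −6.93, SE 0.44, adjusted p = 0.000988). The neighbours TraesCS5B02G040800† and TraesCS5B02G040700† fell in the same manner, with log2 fold changes of −6.30 (SE 0.56) and −4.41 (SE 0.67), and TraesCS1A02G050400 fell 16.3-fold from a control mean of 596. Some members went the other way. TraesCS4A02G122100 gave 88.2, 63.8 and 51.2 in control roots and 1661, 1219.9 and 803 in salt-treated roots and rose 17.6-fold (log2 fold change 4.13, SE 0.31, adjusted p = 0.00128), and TraesCS4B02G182000 rose 7.95-fold. A further SWEET gene, TraesCS6A02G009100, gave 255, 239.7 and 434 in control roots and 648, 822 and 586 in salt-treated roots, higher in each salt library but short of the threshold (limma adjusted p = 0.0285).

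In central carbon metabolism single genes were called and most families gave few calls or none. Of the sucrose and starch enzymes 4 of 45 rose and 2 fell (5 up and 1 down without salt replicate 3, at most 1 and 2 without any other library). Pyruvate, phosphate dikinase, which can turn pyruvate back to phosphoenolpyruvate, gave 439, 268 and 167 in control roots and 5088, 3744 and 4828 in salt-treated roots for TraesCS1A02G253400†. It rose 16.7-fold (log2 fold change 4.06, SE 0.34, adjusted p = 0.00147), and TraesCS1B02G264900† rose 8.06-fold. The alpha subunit of the pyrophosphate-dependent phosphofructokinase, TraesCS5A02G072700†, rose 5.26-fold (log2 fold change 2.40, SE 0.37, adjusted p = 0.00909). Of 11 glyceraldehyde-3-phosphate dehydrogenase genes 3 rose and 0 fell. TraesCS7B02G213300 gave 5408, 5666 and 5328 in control roots and 20827, 22245 and 15449 in salt-treated roots, and TraesCS7A02G313100 and TraesCS7D02G309500† of the same chromosome group rose 2.98-fold and 3.37-fold. Some other glycolytic families held no DEG, with 0 of 8 ATP-dependent 6-phosphofructokinases, 0 of 7 phosphoglycerate kinases and 0 of 9 pyruvate kinases called (4, 1 and 5 at an unadjusted p under 0.05). At an adjusted p under 0.05, 0, 1 and 2 of these were higher and 0 lower. Without overlap 4, 1 and 4 were higher and 0, 0 and 1 lower, against 52.2% of described genes in either direction. Of 7 fructose-bisphosphate aldolases 1 fell as a DEG, 1 was higher at an adjusted p under 0.05, and 4 were higher and 1 lower without overlap. Sucrose synthase, which splits sucrose, rose 3.72-fold in TraesCS4A02G140000†, the 1 of 9 genes called.

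Of 12 starch synthase genes tested, 3 rose and 0 fell, and of 6 genes of glucose-1-phosphate adenylyltransferase, the enzyme before it, 0 were called in limma (4 at an unadjusted p under 0.05). TraesCS7B02G093800 gave 5.01, 3.86 and 1.9 in control roots and 54.7, 48.9 and 62.5 in salt-treated roots (log2 fold change 3.67, SE 0.39, adjusted p = 0.00276), a low level that was higher in each salt library, and TraesCS7A02G120300 and TraesCS7B02G018600† rose 5.2-fold and 3.47-fold. Beta-amylase, which releases maltose from starch, gave 1612, 1110.5 and 1139 in control roots and 102, 284 and 139 in salt-treated roots for TraesCS1A02G215500 and fell 7.92-fold (log2 fold change −2.99, SE 0.37, adjusted p = 0.0044). TraesCS1B02G229000 fell 8.17-fold, and these were the 2 of 9 beta-amylase genes called. The hemoglobin 1 gene TraesCS4D02G238600†, of a class that binds nitric oxide and is known to rise when oxygen is short, gave 5.9, 10.1 and 2.77 in control roots and 124, 151 and 47.3 in salt-treated roots (log2 fold change 3.88, SE 0.56, adjusted p = 0.00716).

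Of the antioxidant and thiol proteins 10.5% were called, close to the 9.29% of described genes, and the calls included falls of 2 of 4 glutathione synthetase genes. Glutathione synthetase joins glycine to the dipeptide of glutamate and cysteine to complete glutathione. TraesCS7A02G442500 gave 668, 777 and 639 in control roots and 44.9, 45.9 and 53.6 in salt-treated roots, a fall of 14.2-fold with little spread in either group (log2 fold change −3.82, SE 0.18, adjusted p = 0.000568). TraesCS7B02G341200 gave 363, 492 and 302 in control roots and 18.9, 29.4 and 19.9 in salt-treated roots and fell 16.3-fold (log2 fold change −4.02, SE 0.27, adjusted p = 0.0011). A glutathione peroxidase gene, TraesCS6B02G278100†, fell 4.08-fold, and a catalase gene, TraesCS6D02G048300, rose 3.54-fold. Over the group of antioxidant and thiol proteins 1 of 38 tested rose and 3 fell (1 up and 3 down without salt replicate 3, at most 0 and 3 without any other library). Of 4 genes described as glutathione S-transferase 0 passed the threshold in limma, with 2 under an adjusted and 2 under an unadjusted p of 0.05. Only 5 genes carry that description, so these counts do not speak for the family. The paper, which assigned genes through KEGG orthology, reports many such genes among its root DEGs.

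Class III peroxidases use hydrogen peroxide to cross-link the cell wall and form the largest described family. Of 293 tested, 12 rose and 17 fell, a share of 9.9% that is close to the 9.29% of described genes. The median was −0.87 against −0.18 over described genes (13 up and 75 down without salt replicate 3, at most 6 and 8 without any other library). The most abundant riser was TraesCS2A02G571300, with 2811, 1714 and 1274 in control roots and 8639, 7981 and 7633 in salt-treated roots (log2 fold change 2.14, SE 0.29, adjusted p = 0.00562). The rises with the smallest adjusted p were TraesCS2A02G107300 and TraesCS4A02G235800, at 17.8-fold and 9.5-fold. Falls reached −4.29 (SE 0.40) in TraesCS7A02G353400†, −3.68 (SE 0.33) in TraesCS7B02G379100 and −4.06 (SE 0.26) in TraesCS2B02G614400, the latter from 639.9 ± 120.2 to 38.1 ± 12.2 (SD, n = 3).

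Genes of the root's barriers fell more often than they rose. The group of Casparian strip, suberin and wax proteins had 10 down and 1 up of 76 tested, with a median of −0.67 (1 up and 14 down without salt replicate 3, at most 0 and 6 without any other library). CASP-like proteins are relatives of those that place the Casparian strip. TraesCS5A02G438900 gave 1072, 1672 and 2088 in control roots and 83.6, 96.1 and 204 in salt-treated roots, so the highest salt library was well below the lowest control (log2 fold change −3.71, SE 0.39, adjusted p = 0.00257), and TraesCS5B02G441700 fell 13.0-fold. Cytochrome P450 86A1, a hydroxylase of suberin fatty acids, fell 2.79-fold in TraesCS3A02G368200† and 3.35-fold in TraesCS3B02G399900†. Next to the latter, the glycerol-3-phosphate acyltransferase gene TraesCS3B02G400000† fell 2.57-fold. A 3-ketoacyl-CoA synthase gene, TraesCS4A02G065300†, whose kind lengthens fatty acids for suberin and wax, fell 4.8-fold, and a fatty acyl-CoA reductase gene, TraesCS7A02G089400†, gave 48.1, 93.6 and 76.7 in control roots and 2.97, 0 and 0 in salt-treated roots (log2 fold change −5.49, SE 0.64, adjusted p = 0.00363). The one rise was that of a non-specific lipid-transfer protein gene, TraesCSU02G147200, with 3.14 (SE 0.43).

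Lignin genes did not move as one. Laccases, which polymerise lignin precursors, had 4 up and 2 down of 40 tested (1 up and 4 down without salt replicate 3, at most 1 and 2 without any other library). Among the 29 that are listed in the authors' comparison of control shoots with control roots, 0 rose and 2 fell. The neighbours TraesCS3B02G489700† and TraesCS3B02G489800† gave 0, 1.55 and 0 in control roots and 39.7, 67.7 and 20.1 in salt-treated roots and 2.52, 1.55 and 0 in control roots and 36.7, 43.6 and 58.4 in salt-treated roots. Both were near zero in the controls and present in each salt library, as was TraesCS3A02G452400, with 3.36, 0.777 and 1.87 in control roots and 49.7, 77.0 and 59.3 in salt-treated roots. The fourth riser, TraesCS2A02G206500, rose 3.52-fold. Unlike those genes, it could be tested in the fits without a salt library. In contrast, TraesCS3B02G397300 and TraesCS3A02G365500 fell 10.3-fold and 9.06-fold. Dirigent proteins, which steer the coupling of lignin and lignan precursors, had 1 up and 6 down of 54 tested (1 up and 13 down without salt replicate 3, at most 1 and 6 without any other library). The one rise, TraesCS4A02G431400, gave 10.9, 19.4 and 6.52 in control roots and 461, 445 and 278 in salt-treated roots (log2 fold change 4.98, SE 0.40, adjusted p = 0.00142), and of the falls TraesCS2B02G176400† went from 157 ± 66.5 to 4.33 ± 4.58 (SD, n = 3), while TraesCSU02G200800 and TraesCS4A02G012400 had log2 fold changes of −3.20 (SE 0.30) and −1.79 (SE 0.19). Of the phenylpropanoid enzymes, which make lignin and flavonoid precursors, 0 of 46 rose and 2 fell, a 4-coumarate--CoA ligase-like gene (TraesCS4A02G036200, −1.55 (SE 0.23)) and a chalcone-flavonone isomerase family gene (TraesCS5A02G475600, −1.78 (SE 0.27)), with 34 of 46 lower in salt without overlap, where 52.2% of described genes did not overlap in either direction, and a median of −1.36 (0 up and 4 down without salt replicate 3, at most 0 and 1 without any other library).

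Among genes of cell wall loosening, few expansin and xyloglucan genes were called (3.26%) and more of the pectin genes (17.6%), against 9.29% of described genes. Of 92 expansin and xyloglucan genes, 1 rose and 2 fell, and of 34 pectin genes 2 rose and 4 fell. Without salt replicate 3 these were 4 and 14, and 2 and 6, and without any other library at most 1 and 1, and 0 and 3. The riser, the xyloglucan endotransglucosylase/hydrolase TraesCS7B02G327400, gave 474, 349.8 and 370.2 in control roots and 4486, 3356 and 2645 in salt-treated roots and rose 8.64-fold (log2 fold change 3.11, SE 0.23, adjusted p = 0.00128). Expansin genes TraesCS3A02G165600 and TraesCS4A02G034200 fell with −4.61 (SE 0.68) and −2.23 (SE 0.34). Pectinesterase genes TraesCS1A02G341800 and TraesCS5A02G043800 rose with 1.65 (SE 0.24) and 2.22 (SE 0.35). Of 12 pectin acetylesterases 4 fell, among them TraesCS3A02G533300 and TraesCS3A02G533600 of 1 stretch of chromosome 3A, with −3.48 (SE 0.35) and −2.91 (SE 0.31). None of 17 cellulose synthase and endoglucanase genes was called in limma, with 4 at an adjusted and 6 at an unadjusted p under 0.05, and 1 fell without salt replicate 3.

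Proteins known from defence against fungi made up the group with the highest share of risers. Of 38 chitinase, Wheatwin, thaumatin and protease inhibitor genes 9 rose and 1 fell, with a median log2 fold change of 1.65 (8 up and 1 down without salt replicate 3, at most 4 and 2 without any other library). The thaumatin-like protein gene TraesCS5A02G017900 gave 122, 77.9 and 58.4 in control roots and 2664, 4071 and 2016 in salt-treated roots, a rise of 33.6-fold (log2 fold change 5.07, SE 0.34, adjusted p = 0.0011). Cysteine proteinase inhibitors TraesCS2B02G148400† and TraesCS2A02G126100† rose 8.11-fold and 8.6-fold, the latter from 92.3 ± 4.25 to 944 ± 539 (SD, n = 3). That gene was lowest among salt libraries in replicate 3, while chitinase 3 (TraesCS3A02G260200), the chitinase TraesCS3B02G293200, Wheatwin-1 (TraesCS3A02G517100) and the thaumatin-like PWIR2 (TraesCS7D02G551400†) were highest there, at 871, 4502, 7053 and 646 against at most 276, 1049.7, 1633 and 149.8 in the other salt libraries. Xylanase inhibitor TAXI-I, which acts on fungal enzymes, rose 12.5-fold in TraesCS3B02G514800†, a gene outside the group. The one fall was pathogenesis-related protein 1-10, TraesCSU02G095300, with −3.41 (SE 0.35).

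Genes for lipid-derived signals were among those that fell. Lipoxygenases oxidise linolenic acid at the start of jasmonate synthesis, and in the lipoxygenase and jasmonate group 0 of 21 genes rose and 4 fell, with a median of −1.47 and 12 lower at an adjusted p under 0.05 (0 up and 6 down without salt replicate 3, at most 0 and 3 without any other library). TraesCS5B02G382400† gave 2829, 3881 and 1993 in control roots and 3.06, 14.8 and 94.2 in salt-treated roots, a fall seen in every salt library but over a wide range (log2 fold change −7.26, SE 1.00, adjusted p = 0.00612). TraesCS4A02G275900, the most abundant of the 4, had 8086, 7321 and 4728 in control roots and 1204, 1442 and 1469.9 in salt-treated roots and fell 4.78-fold. TraesCS2B02G555400 fell 9.25-fold and TraesCS1A02G015700†, described as 12-oxophytodienoic acid reductase 1-A2a, 5.29-fold. TraesCS2B02G333600, another lipoxygenase, did not pass (−1.89 (SE 0.41), limma adjusted p = 0.0265). Patatins, which free fatty acids from lipids, had 8 down and 1 up of 29 tested, and TraesCS7A02G177300 among them gave 5170.2, 6103 and 3208 in control roots and 727, 742 and 690.4 in salt-treated roots. Of 5 terpene genes, 3 terpene cyclases fell, to values of at most 3.45 in every salt library (0 up and 3 down without salt replicate 3, at most 0 and 2 without any other library), namely TraesCS4A02G498200, TraesCS4A02G496400 and TraesCS7A02G001700†, the last from 24.5 ± 14.8 in controls (SD, n = 3). The ent-copalyl diphosphate synthase gene TraesCS2B02G445500†, of the gibberellin and diterpenoid pathway, went the other way with 719, 66.0 and 6.54 in control roots and 1149, 1607 and 6640.0 in salt-treated roots and missed the threshold (limma adjusted p = 0.0661).

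Genes that conjugate or move small molecules changed by large factors. Sulfotransferases add sulfate to small molecules, and 11 of 40 fell while 0 rose, with a median log2 fold change of −1.32 (1 up and 13 down without salt replicate 3, at most 0 and 8 without any other library). TraesCSU02G188400† gave 32.0, 30.4 and 51.1 in control roots and 0, 0 and 0 in salt-treated roots, and against a floor of 3 counts per library it was at least 12.6-fold lower. TraesCS7A02G426000† fell 16.8-fold from 209. WAT1-related proteins are membrane carriers, 1 of which exports auxin from the vacuole in Arabidopsis. Of 65 tested 3 rose and 11 fell (6 up and 13 down without salt replicate 3, at most 1 and 8 without any other library). TraesCS1A02G256700† gave 971, 1064 and 1148 in control roots and 6.89, 8.34 and 2.62 in salt-treated roots and TraesCS6A02G329600† gave 632, 824 and 722 in control roots and 1.53, 2.78 and 6.11 in salt-treated roots, with log2 fold changes of −7.36 (SE 0.36) and −7.47 (SE 0.39). In both, the lowest control library was far above the highest salt library. DETOXIFICATION proteins, exporters of the MATE class, went both ways with 7 up and 6 down of 81 (6 up and 9 down without salt replicate 3, at most 3 and 5 without any other library). TraesCS4B02G244400† gave 62.1, 65.3 and 66.4 in control roots and 918, 787 and 714 in salt-treated roots and TraesCS4A02G066800† 84.4, 98.2 and 104 in control roots and 1015, 746 and 886 in salt-treated roots, so both genes rose 12.2-fold and 9.1-fold with little spread.

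Glycosyltransferases, which attach sugars to hormones and other small molecules, had 5 up and 11 down of 188 tested, against 3.06% and 6.23% of described genes (6 up and 19 down without salt replicate 3, at most 2 and 8 without any other library). Those with the smallest adjusted p were TraesCS1B02G080400 and TraesCS5B02G435300 among the risers, with log2 fold changes of 3.09 (SE 0.31) and 3.51 (SE 0.39), and TraesCS2B02G081400 and TraesCS2A02G273700 among the fallers, with −2.10 (SE 0.20) and −5.42 (SE 0.54).

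Genes of cytokinin, gibberellin and ethylene synthesis were among those that fell. The group of hormone genes other than those of auxin had 6 down and 1 up of 53 tested, or 13.2% against 9.29% of described genes. Its median was −0.74 (4 up and 8 down without salt replicate 3, at most 0 and 5 without any other library). The LOG enzyme, cytokinin riboside 5'-monophosphate phosphoribohydrolase, makes active cytokinin in 1 step, and 3 of its 12 tested genes fell while 0 rose (5 fell without salt replicate 3, and at most 2 without any other library). The family had a median log2 fold change of −3.34, and all 12 genes were lower in each salt library than in any control, against 52.2% of described genes without overlap in either direction, and limma gave 11 an adjusted p below 0.05. TraesCS3A02G211100 gave 174, 188 and 162 in control roots and 8.42, 12.0 and 18.3 in salt-treated roots (log2 fold change −3.72, SE 0.31, adjusted p = 0.00147), and the neighbours TraesCS5B02G561300† and TraesCS5B02G561400† fell 10.2-fold and 10.0-fold. Of 5 two-component response regulators, through which cytokinin acts, 2 fell, TraesCS6A02G146200† (−1.33 (SE 0.20)) and TraesCS6B02G174400† (−1.15 (SE 0.16)). The gibberellin-activating GA3ox-B3, TraesCS2B02G570900†, a gene outside the group, went from 32.7 ± 4.47 to 2.18 ± 1.5 (SD, n = 3). The ethylene precursor enzyme 1-aminocyclopropane-1-carboxylate synthase 7 fell 7.38-fold in TraesCS3B02G125200, the 1 of 2 genes called (log2 fold change −2.88, SE 0.40, adjusted p = 0.00605), while ethylene responsive transcription factor 5a, TraesCS5B02G214400, rose 2.5-fold.

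Auxin genes had 13 down and 2 up of 64 tested (2 up and 11 down without salt replicate 3, at most 0 and 13 without any other library). Among the 39 that are listed in the authors' comparison of control shoots with control roots, 5 fell and 0 rose. Of the 13 falls, 9 were among the 32 auxin-responsive proteins tested and 4 among the 21 auxin response factors. TraesCS3A02G276500 gave 268, 312 and 289.9 in control roots and 57.4, 76.0 and 59.4 in salt-treated roots (log2 fold change −2.17, SE 0.19, adjusted p = 0.00167), and TraesCS7B02G256100† and TraesCS7A02G371500 fell 6.28-fold and 7.88-fold. The response factor TraesCS2A02G309300† fell 2.52-fold from 2195. Both risers were efflux carriers, which pass auxin from cell to cell. TraesCS7A02G258800 gave 0, 1.56 and 0 in control roots and 65.0, 47.1 and 26.2 in salt-treated roots, and TraesCS5A02G284500 gave 10.1, 10.1 and 9.3 in control roots and 63.5, 84.3 and 34.9 in salt-treated roots.

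Of 113 transcription factors tested 1 rose, the ethylene responsive factor above, and 8 fell, with 4 up and 27 down at an adjusted p under 0.05 (5 up and 12 down without salt replicate 3, at most 0 and 11 without any other library). The homeodomain-leucine zipper gene TraesCS4B02G261600 gave 560.5, 332 and 346 in control roots and 33.7, 47.2 and 55.9 in salt-treated roots (log2 fold change −3.14, SE 0.29, adjusted p = 0.00177), and TraesCS4A02G040600 of the same description fell 7.54-fold. A NAC gene, TraesCS5A02G143200†, fell 5.05-fold, a bZIP gene, TraesCS7A02G170600†, 5.25-fold and heat shock factor C2a, TraesCS7B02G272500, 3.55-fold. In the calcium and kinase group 1 of 30 was called, the glutamate receptor TraesCS5B02G217200 with −2.03 (SE 0.32), and 13 were lower at an adjusted p under 0.05 (0 up and 1 down without salt replicate 3, at most 0 and 1 without any other library). The neighbour of that receptor, TraesCS5B02G217500, had −1.71 (SE 0.36) (limma adjusted p = 0.0224). Among other kinases, 3 of 38 described as non-specific serine/threonine protein kinase rose and 8 fell (6 up and 9 down without salt replicate 3, at most 1 and 6 without any other library), and 2 of 63 described as serine/threonine-protein kinase rose and 0 fell (1 up and 4 down without salt replicate 3, at most 0 and 1 without any other library). The 14-3-3 protein gene TraesCS2B02G344600 fell 2.38-fold from 3966. GIGANTEA, a clock protein, rose in all 3 genes so described, TraesCS3A02G116300†, TraesCS3B02G135400† and TraesCS3D02G118200†. Their log2 fold changes were 1.85 (SE 0.24), 1.73 (SE 0.27) and 1.57 (SE 0.18), and all plants were harvested at midday.

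Of 25 heat shock and chaperone genes 1 fell and 0 rose in limma, with 4 up and 4 down under an adjusted p of 0.05 (1 up and 1 down without salt replicate 3, at most 0 and 0 without any other library). Heat shock protein 90, TraesCS2A02G033700, gave 7.55, 3.88 and 3.74 in control roots and 10.7, 496 and 5.23 in salt-treated roots, so it was high in salt replicate 2 alone and did not pass the filter. In the group of tubulins, kinesins and actins 1 of 24 rose, the kinesin-like gene TraesCS1B02G360700 with a log2 fold change of 1.57 (SE 0.17), and 0 fell (1 up and 3 down without salt replicate 3, at most 1 and 0 without any other library). The heat-stress associated gene HSA32, TraesCS7A02G451100†, gave 7.56, 7.78 and 7.45 in control roots and 169, 289 and 72.5 in salt-treated roots (log2 fold change 4.16, SE 0.48, adjusted p = 0.00359). Ribosomal proteins (41 tested, median −0.20), receptor-like kinases (22, median −0.26) and histones, cyclins and DNA replication genes (33, median −0.50) had no DEGs in limma, and 0, 3 and 7 of them, all 7 downward, were under an adjusted p of 0.05, with 2, 11 and 12 under an unadjusted p of 0.05. Without salt replicate 3, 2 genes of the last group fell as DEGs.

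Some genes were near 0 in 1 condition and present in the other. In 68 genes every control library was at 3 or less and every salt library at 10 or more, and 45 of these were DEGs. In 101 genes the reverse held, and 72 were DEGs. Of these genes, 10 and 20 have descriptions. The flavin-containing monooxygenase gene TraesCS5A02G348400, of a class that oxidises nitrogen and sulfur compounds, gave 0.839, 2.33 and 0.933 in control roots and 63.5, 40.8 and 40.1 in salt-treated roots and belongs with HKT8, the 3B laccases and the 7A efflux carrier to the first set. The second set holds the 5A SWEET gene, 2 terpene cyclases and the fatty acyl-CoA reductase described above. Without a description, TraesCS1B02G440400 gave 0, 0 and 0 in control roots and 524, 81.5 and 119 in salt-treated roots and TraesCSU02G085100 0.839, 0 and 0 in control roots and 167, 155 and 53.2 in salt-treated roots, both among the 5 largest rises of DEGs. Of the undescribed falls, TraesCS5B02G350000 gave 3891, 4288 and 119 in control roots and 0, 3.71 and 0.873 in salt-treated roots, with 1 low control library, TraesCS7B02G278500 gave 277, 463 and 292 in control roots and 3.06, 0 and 0 in salt-treated roots and TraesCS5A02G391500 gave 686, 957 and 1634 in control roots and 13.0, 4.63 and 0 in salt-treated roots.

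DEGs also lay next to each other. Taking tested genes in the order of their identifiers, 5 runs of at least 4 neighbours were called in the same direction, and this pattern was looked for after the calls were seen. On chromosome 2B, 5 genes from TraesCS2B02G392100 to TraesCS2B02G392600 (chr2B:556517200-556847428) fell, the last a sulfotransferase. A second run on 2B, TraesCS2B02G553600 to TraesCS2B02G553900, fell too and holds a gene described as SEP2 and TraesCS2B02G553800†, which gave 393, 385 and 409 in control roots and 3.08, 3.66 and 3.5 in salt-treated roots (log2 fold change −6.49, SE 0.22, adjusted p = 0.000296), the smallest adjusted p among the genes of these runs. Another run, TraesCS2B02G103000 to TraesCS2B02G103400, fell as well, with log2 fold changes from −5.34 to −2.31. Genes TraesCS2B02G606300 to TraesCS2B02G606600 rose, and TraesCS2B02G606500† gave 515, 152 and 124 in control roots and 2629.7, 2568 and 4484 in salt-treated roots. On 4B, TraesCS4B02G363700 to TraesCS4B02G364000 fell as well.

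The response of roots was set against that of shoots by testing the difference of the log2 fold changes over all 12 libraries with limma. According to the paper, roots and shoots came from the same plants. The labels do not say which libraries share plants, and the fit treated all 12 as independent. Of 51487 genes tested, 2.13% differed (adjusted p under 0.01, with a difference of 1 or more in size), and among the 1553 root DEGs 422 (27.2%) did. In 115 of the 422 every shoot library was at 3 or less, that is at or near 0 under both treatments, among them HKT8 and the 5A SWEET gene. A change of at least 1 in the opposite direction was estimated in shoots for 35 of the 151 risers and 26 of the 271 fallers that differed, the potassium transporter TraesCS3B02G481800 among them with −1.75. TraesCS1A02G253400†, the pyruvate, phosphate dikinase, rose in roots and had a shoot estimate of 0.02 (difference 4.04, limma adjusted p = 0.000327). P5CS TraesCS3A02G363700 rose by more in shoots, at 4.07 (difference −1.89, limma adjusted p = 0.00854), whereas glutathione synthetase TraesCS7A02G442500 had a shoot estimate of 0.70 against its fall in roots. For GIGANTEA, ferritin TraesCS5B02G151000† and the proline dehydrogenases TraesCS1A02G209100† and TraesCS1D02G212400† a difference between organs did not pass the threshold. That ferritin gene missed it narrowly (difference −1.48, limma adjusted p = 0.0117), with a shoot estimate of −0.01. Other copies did pass, ferritin TraesCS5A02G152400† (−1.59, limma adjusted p = 0.00564) and proline dehydrogenase TraesCS1B02G223300† (−2.33, limma adjusted p = 0.000669).

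**Figure D4:**
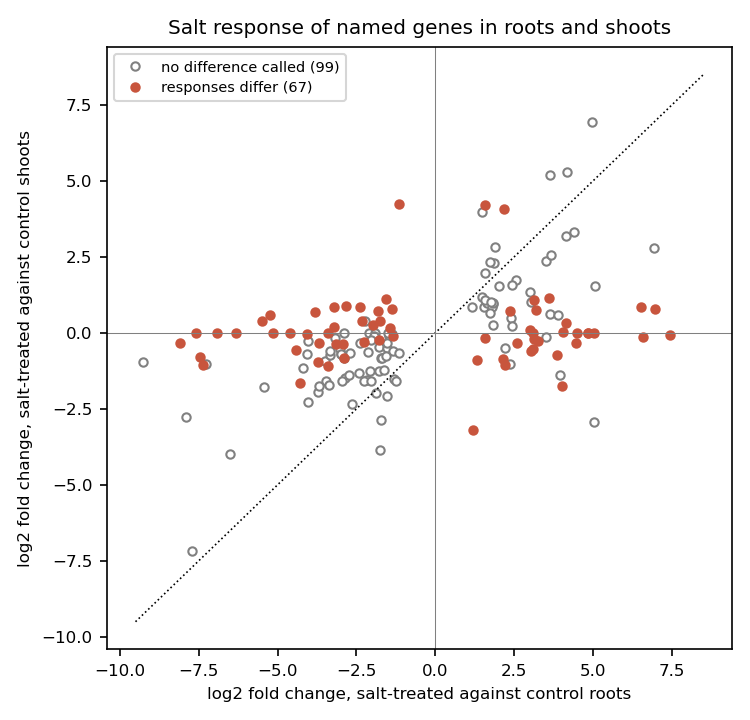
Log2 fold change in salt for the genes named in the text, in roots (horizontal axis) and shoots (vertical axis), from the fits to normalized counts. Filled points are genes whose responses differ between organs (limma, adjusted p under 0.01 and absolute difference of at least 1), open points are the others, and the dotted diagonal marks equal response. Many of the filled points lie near 0 on the shoot axis, including the 1A pyruvate, phosphate dikinase.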

How the data were processed

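RNA-seq libraries were made with a poly(A), non-directional kit. According to the submitters' notes and methods, the authors trimmed reads with Trimmomatic 0.36 after FastQC 11.8, quantified them with Salmon 0.12.0 on Ensembl Plants wheat transcripts (IWGSC), summed them to genes with tximport and normalized them with DESeq2. The deposited values are a signal, estimated counts divided by gene-wise normalization factors, and whole reads could not be recovered, so no count model was run. The authors' comparison tables list only genes they called. Descriptions and positions were taken from them, while their fold changes, p-values and means over libraries were not used.

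Log2(value + 1) of genes with at least 10 in at least 3 root libraries was fitted with limma 3.58.1 (R 4.3.3, variance trend, Benjamini-Hochberg adjustment over all genes tested). Samples were grouped by their labels. The procedure was tested on simulated data, and figures used matplotlib 3.10.9 (Python 3.11.15). Groups were formed by words in descriptions, with 17 accidental matches removed. Named by rule were up to 2 DEGs of smallest adjusted p per group and direction, the 5 described DEGs of highest level and the 5 DEGs of largest fold change without overlap in each direction, and the 8 genes of the study's RT-qPCR. Members, groups and lists were chosen with earlier results of these data known. Identifiers matched to the reference table at hand numbered 0, so no sequences are shown. The sequencing depth behind a value cannot be read from the deposited values, so no counting interval is given. Alternatives were the adjusted p threshold, the fold threshold, pseudocounts, filters, scaling, variance trend, all 12 libraries, the replicate block, each library left out and, for groups, only genes of the control organ table.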

Additional observations from a re-analysis of the deposited data

Results flagged for a closer look

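The change in salt differed between roots and shoots for 64 of the 160 root DEGs named in the report, 29 that rose and 35 that fell, by limma over all 12 libraries with an adjusted p under 0.01 and an absolute difference of log2 fold changes (roots minus shoots) of at least 1. For 17 of the 64, HKT8 and both 3B laccases among them, every shoot library was at 3 or less, that is at or near 0 under both treatments. A change of at least 1 in the opposite direction was estimated in shoots for 3 of them. The values below are estimates on log2(normalized count + 1), from a fit that did not pair roots with shoots of the same plants. No cause of the differences was tested.

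For genes that rose in roots, the difference on the log2 scale was 4.04 for TraesCS1A02G253400, 2.91 for TraesCS1B02G264900 (pyruvate, phosphate dikinase), 3.62 for TraesCS1B02G080400 (glycosyltransferase), 1.74 for TraesCS1B02G360700 (kinesin-like protein KIN-14U), 7.51 for TraesCS1B02G440400, 4.59 for TraesCS2B02G606500 and 5.68 for TraesCSU02G085100 (no description), 3.82 for TraesCS2A02G107300, 3.00 for TraesCS2A02G571300, 3.50 for TraesCS4A02G235800 (peroxidase) and 3.12 for TraesCS2A02G126100 (cysteine proteinase inhibitor). Further risers had differences of 3.62 for TraesCS2A02G161100 (trehalose 6-phosphate phosphatase), 2.94 for TraesCS2B02G060800 (nicotianamine synthase), 6.16 for TraesCS3A02G260200 (chitinase 3), −1.89 for TraesCS3A02G363700 (delta-1-pyrroline-5-carboxylate synthase), 4.79 for TraesCS3A02G452400, 4.83 for TraesCS3B02G489700, 4.48 for TraesCS3B02G489800 (laccase) and 6.69 for TraesCS3B02G293200 (chitinase). Other genes higher in salted roots gave 5.75 for TraesCS3B02G481800 (potassium transporter), 2.45 for TraesCS4A02G066800, 2.45 for TraesCS4B02G244400 (protein DETOXIFICATION), 4.83 for TraesCS4B02G370800 (HKT8), 3.28 for TraesCS5A02G043800 (pectinesterase), 2.23 for TraesCS5B02G214400 (ethylene responsive transcription factor 5a) and 1.65 for TraesCS7A02G120300 (starch synthase). The remaining risers gave 5.02 for TraesCS7A02G258800 (auxin efflux carrier component), 2.03 for TraesCS7B02G327400 (xyloglucan endotransglucosylase/hydrolase) and 3.34 for TraesCSU02G147200 (non-specific lipid-transfer protein).

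For genes that fell in roots, the difference was −6.29 for TraesCS1A02G256700, −6.67 for TraesCS6A02G329600 (WAT1-related protein), −2.33 for TraesCS1B02G223300 (proline dehydrogenase), −1.23 for TraesCS2A02G309300 (auxin response factor), −5.14 for TraesCS2B02G176400, −3.40 for TraesCSU02G200800 (dirigent protein), −1.56 for TraesCS2B02G425600 (plasma membrane intrinsic protein) and −4.06 for TraesCS2B02G555400, −1.95 for TraesCS4A02G275900 (lipoxygenase). Further fallers had differences of −4.61 for TraesCS3A02G165600 (expansin), −2.74 for TraesCS3A02G211100 (cytokinin riboside 5'-monophosphate phosphoribohydrolase), −2.08 for TraesCS3A02G533600 (pectin acetylesterase), −2.14 for TraesCS3B02G399900 (cytochrome P450 86A1), −2.66 for TraesCS4A02G036200 (4-coumarate--CoA ligase-like 7) and −2.55 for TraesCS4A02G040600, −2.77 for TraesCS4B02G261600 (homeodomain-leucine zipper transcription factor). Other genes lower in salted roots gave −7.60 for TraesCS4A02G496400, −7.76 for TraesCS4A02G498200 (terpene cyclase/mutase family member), −6.93 for TraesCS5A02G039000, −3.84 for TraesCS5B02G040700, −6.30 for TraesCS5B02G040800 (bidirectional sugar transporter SWEET), −2.72 for TraesCS5A02G143200 (NAC domain transcription factor), −1.59 for TraesCS5A02G152400 (ferritin), −2.22 for TraesCS5A02G221200 (S-adenosylmethionine decarboxylase proenzyme) and −3.35 for TraesCS5B02G441700 (CASP-like protein). The remaining fallers gave −5.87 for TraesCS7A02G089400 (fatty acyl-CoA reductase), −2.17 for TraesCS7A02G134100 (raffinose synthase family protein), −3.25 for TraesCS7A02G170600 (bZIP transcription factor), −2.65 for TraesCS7A02G353400 (peroxidase), −4.04 for TraesCS7A02G426000, −5.84 for TraesCSU02G188400 (sulfotransferase) and −4.53 for TraesCS7A02G442500 (glutathione synthetase). Also among the fallers were −3.69 for TraesCS7B02G269900 (myo-inositol oxygenase 1), −2.56 for TraesCS7B02G272500 (heat shock factor C2a) and −3.41 for TraesCSU02G095300 (pathogenesis-related protein 1-10).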

How the results depend on the processing

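The counts of root DEGs were recomputed under the alternatives with all 6 libraries and by leaving out each library. An adjusted p threshold of 0.05 gave 5354 root DEGs (1869 up and 3485 down), no variance trend 969 (355 up and 614 down) and the fit of all 12 libraries 3707 (1284 up and 2423 down). The replicate numbers did not pair the root samples, with correlations of same-numbered deviations of 0.035, 0.13 and 0.002, and the replicate block gave 285 root DEGs (88 up and 197 down). Changing the pseudocount, the filter, the fold threshold or the scaling gave 1154 to 1927. With 1 library left out the counts of root DEGs ranged from 0 to 2526, of risers from 0 to 847 and of fallers from 0 to 1679, and 136 of 144 calls without root control replicate 1, 6 of 6 without root control replicate 3, 521 of 564 without root salt replicate 1, 767 of 1128 without root salt replicate 2 and 1235 of 2526 without root salt replicate 3 were among the 1553. The split was 70 up and 74 down without root control replicate 1, which is 51.4% down against 66.3%. Without root control replicate 2 limma called 0 genes, with 9967 at an unadjusted p under 0.05. Of the 1553 DEGs, 1309 kept an adjusted p under 0.05 in every such fit in which they were tested.

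The difference between roots and shoots was called for 1097 genes, and for 3078 at an adjusted p threshold of 0.05, 726 with a pseudocount of 0.1, 1891 with a pseudocount of 10 and 453 to 1727 with 1 library left out. Of the root DEGs, 422 differed, and 780, 251, 700 and 161 to 456 did so under these settings. The replicate block gave 1003 and 383. No called gene named in the report reversed its direction under any alternative in which it was tested. For the change in roots the groups did not overlap in any DEG, so leaving out a library could not reverse it.

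Over the 31 groups and both directions, the 62 counts moved by more than 1.5 times for 35 under the replicate block, 45 at an adjusted p threshold of 0.05, 27 without the variance trend, 27 with all 12 libraries and 0 to 14 under each of the other settings with no library left out, and of their values with 1 library left out 188 moved and 184 did not. Of the named genes' results, 1392 kept their side of the threshold, 236 lost and 7 gained a call with no library left out, and 352 kept and 545 lost it with 1 left out. The deposited values carry no counting error, and with 3 libraries a group an exact permutation test cannot go below a two-sided p of 0.1. The cause of these shifts was not tested.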

Other observations

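Some families of one description had 0 to 2 DEGs and more members past an adjusted p under 0.05 in limma, where 8.58% of described genes rose and 18.2% fell. They were chosen after their values were seen, and no test was made of the families as such. Of 10 HVA22-like proteins, relatives of an abscisic acid-inducible membrane protein of barley, 8 were lower in salt and 0 higher, with a median log2 fold change of −1.07. Of 9 mitogen-activated protein kinases, which relay stress signals, 7 were lower and 0 higher (median −1.21). Carbonic anhydrases, which hydrate carbon dioxide, had 7 of 10 lower and 0 higher (median −1.59). Glycerol-3-phosphate dehydrogenases, which link glycolysis to glycerolipids, had 6 of 9 lower and 0 higher (median −1.50), with 1 other member at 1.20 and higher in every salt library than in any control. Among 50 RING-type E3 ubiquitin transferases, which choose proteins for degradation, 15 were lower and 3 higher (median −0.88), over a range from −2.63 to 2.03, and the 1 DEG of that family rose.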
